A study of Homo sapiens with 6 samples.

Results

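Sphingosine-1-phosphate (S1P) is a signalling lipid that cells export and then sense through a family of 5 G protein-coupled receptors, S1PR1 to S1PR5. The receptors were taken by symbol, and all 5 have a row among the 34371 features of the count table. They were measured in ME-1, an established human acute myeloid leukaemia line, in 3 libraries from cells given an empty vector (control) and 3 from cells given a vector that overexpresses SPNS2, an S1P exporter. Both arms had been infected and selected, polyadenylated RNA was sequenced, and the labels do not say whether the libraries of an arm came from separate cultures, so p-values measure only the spread between these libraries, which may be technical. The comparison asks which S1P receptors the line transcribes and whether their transcripts differ when more of an S1P exporter is made.

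S1P is made inside cells by sphingosine kinases, leaves through exporters such as SPNS2, and acts from outside on the receptors. S1PR1 couples to Gi proteins and drives the egress of lymphocytes from lymphoid organs. S1PR2 and S1PR3 couple to Gi, Gq and G12/13 proteins, S1PR2 being best known for restraining migration. S1PR4 and S1PR5 couple to Gi and G12/13 proteins, with S1PR4 found mainly in blood and lymphoid cells and S1PR5 in natural killer cells and oligodendrocytes. Transcript levels say nothing of receptor protein at the surface, where binding of S1P leads to internalisation.

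Library totals ran from 28605187 to 38489992 counts. Levels are given in CPM, counts relative to the library total after TMM scaling, and levels are compared between genes only as CPM per kb of the longest coding transcript in GENCODE 29. The vector SPNS2 row stood at 778 ± 12.9 CPM in the SPNS2 libraries and 0.113 ± 0.117 CPM in the controls (SD, n = 3 each), in the direction of the labels. Myeloid markers were present, with the summed level of 10 markers between 28118 and 29604 CPM over all libraries, most of it MPO. Single markers moved: of 9 tested, 3 rose and 3 fell (11.9% and 12.6% of all tested features). KIT, a receptor of progenitors, rose by 0.55, PTPRC by 0.26 and RUNX1 by 0.13 on the log2 scale, and CD33, a myeloid surface protein, fell by 0.71, CD34 by 0.25 and LYZ by 0.32. LYZ did not pass without any 1 library but SPNS2 library 3 (edgeR adjusted p = 0.0620 to 0.146). The part of this marker shift in the results on receptors and partners was not tested. Endothelial markers, which would come with S1PR1, summed to at most 0.178 CPM in any library. MYH11, a partner of CBFB in the fusion gene that ME-1 is known for, held 39 counts over the 6 libraries, so its row does not show the fusion, and why was not tested. HLA-C with 3 counts and TAP2 with 0 counts, looked at after their values were seen, are also genes that most blood cells use. A row at 0 therefore means only that no read was assigned to it.

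Reads were assigned to 3 of the 5 receptors in every library. S1PR4 (ENSG00000125910.6) was at 53.8, 50.7 and 52.8 CPM in the controls and at 53.6, 55.3 and 56.4 CPM with SPNS2. S1PR3 (ENSG00000213694.6) was at 23.6, 24.1 and 22.5 CPM in the controls and at 25.3, 23.7 and 24.1 CPM with SPNS2. S1PR2 (ENSG00000267534.4) was at 3.92, 3.55 and 4.84 CPM in the controls and at 4.13, 4.49 and 4.24 CPM with SPNS2. For each of these receptors the values of both arms overlapped, and the highest and lowest S1PR2 values both lay in the empty vector arm. In such bulk libraries, fewer cells with a transcript and less of it per cell cannot be told apart.

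S1PR1 (ENSG00000170989.10) had 0 counts in every library. Over the 6 libraries together, a count of 0 allows a level of up to 0.0152 CPM. S1PR5 (ENSG00000180739.14) had 1 count in control library 1, 1 count in SPNS2 library 1 and 0 in the other libraries, a pooled level of 0.0102 CPM with an exact 95% Poisson interval of 0.00123 to 0.0367 CPM. The interval and the limit cover counting error only. S1PR1 and S1PR5 did not pass the filter on low counts and were not tested. With 1 count in each arm, no difference in S1PR5 could be detected at this depth.

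**Figure D1:**
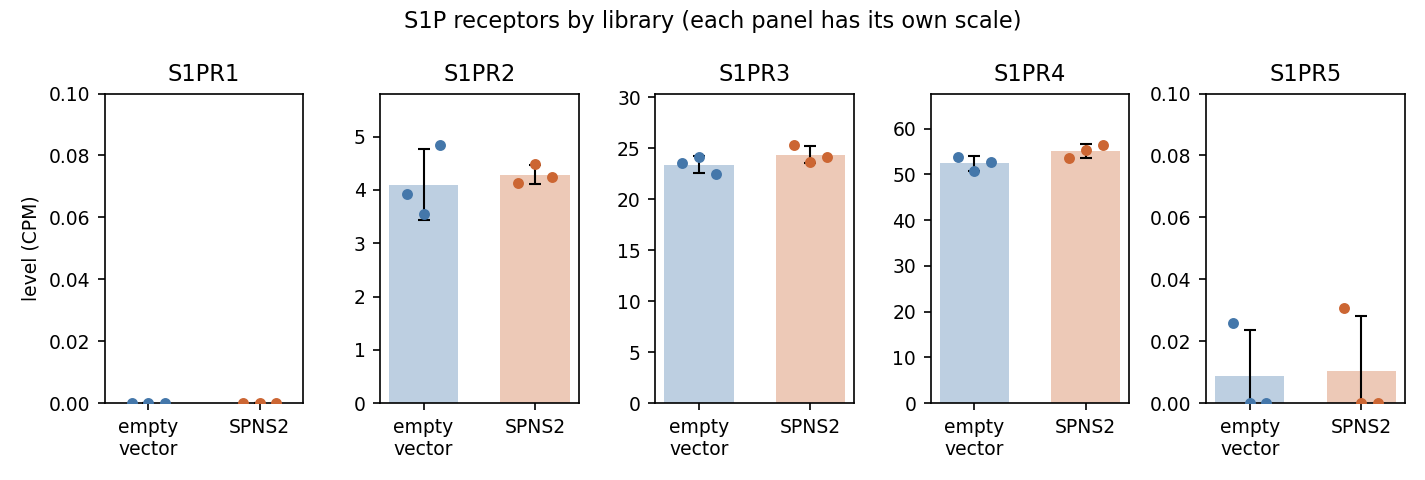
Level in CPM of each S1P receptor (vertical axis, 1 scale per panel) in the empty vector and SPNS2 libraries: points are libraries, bars the mean and whiskers the SD of 3. S1PR4, S1PR3 and S1PR2 have overlapping points in both arms, S1PR1 is at 0 throughout and S1PR5 has 1 count in 1 library of each arm.

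Per length the order was S1PR4, S1PR3, S1PR2. S1PR4 stood at 34.4 ± 1.27 CPM per kb over the 6 libraries, S1PR3 at 2.81 ± 0.108 and S1PR2 at 1.15 ± 0.123 CPM per kb (SD, n = 6). No library broke this order: S1PR4 was 11.4 to 12.8 times S1PR3, and S1PR3 was 1.99 to 2.91 times S1PR2. Neighbours in the order thus differed by more than their spread. The gap between S1PR4 and S1PR3 depends on which S1PR3 transcript is taken. With the longest coding transcript matched to RefSeq, 4894 bases in place of 8505, S1PR3 was at 4.88 ± 0.187 CPM per kb (SD, n = 6) and S1PR4 was 6.57 to 7.34 times higher. With the shortest coding model, 552 bases, S1PR3 came out above S1PR4 in 6 of 6 libraries. S1PR4 has a single coding transcript of 1565 bases, so its own value does not move.

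S1PR4 ranked 1799 of 13259 tested genes with a length, at percentile 86.4, against percentile 32.9 for S1PR3 and 21.5 for S1PR2. The median tested gene was at 6.33 CPM per kb, above S1PR3 and S1PR2. Among 52 listed receptors for lysophospholipids, cannabinoids, chemoattractants and other ligands, S1PR4 was second, after P2RY8 at 74.5 CPM per kb, a receptor that couples to G13. CYSLTR1, a leukotriene receptor, followed at 19.2 CPM per kb, HRH2, a histamine receptor, at 17.3 and LPAR2, a lysophosphatidic acid receptor, at 14.9. S1PR3 took place 7 and S1PR2 place 13. These places and percentiles hold for the longest coding transcripts, and that of S1PR3 depends on the model taken. With its RefSeq-matched length S1PR3 was at 4.88 CPM per kb, above C3AR1 at 3.69 but below the median tested gene. With its shortest coding model it was at 43.3 CPM per kb, above that median and above S1PR4. CXCR4, the chemokine receptor that holds progenitors in bone marrow, was at 0.812 CPM per kb, below all 3 transcribed S1P receptors.

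**Figure D2:**
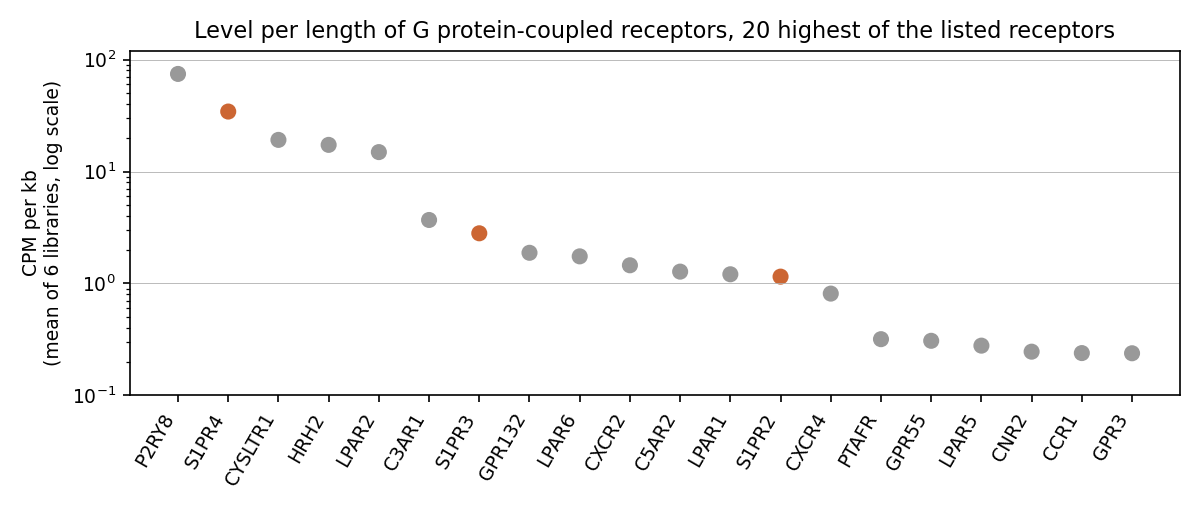
Mean level over 6 libraries in CPM per kb of the longest coding transcript (vertical axis, log scale) for the 20 highest of 52 listed G protein-coupled receptors (horizontal axis); S1P receptors are in orange and the others in grey. With these lengths S1PR4 takes place 2 at 34.4 CPM per kb, S1PR3 place 7 at 2.81 and S1PR2 place 13 at 1.15. Shorter S1PR3 models put S1PR3 higher, and the shortest puts it above S1PR4.

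How far reads can be told apart differs among the receptors. The receptors shared no stretch of 31 bases with each other in GENCODE 29, so no such stretch can be assigned to more than 1 of them. S1PR4 shared 0 of its 1634 stretches with any other gene, S1PR3 shared 2.58% and S1PR2 12.3%. For S1PR2, 62 of the 444 shared stretches occur in DNMT1, the maintenance DNA methyltransferase, whose gene overlaps S1PR2 on the same strand. DNMT1 was at 276 ± 8.68 CPM in the controls and 233 ± 3.62 CPM with SPNS2 (SD, n = 3 each). How much of the S1PR2 row comes from reads of other genes was not tested.

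With the longest coding transcripts, S1PR4 and then S1PR3 stood highest in the family. The bases before their annotated starts are shown, with those of S1PR5, which held 2 counts. They come from RefSeq, build GRCh38.p14, and stop where the first annotated exon begins: S1PR4 at chr19:3178519-3178767 on the plus strand, S1PR3 at chr9:88990613-88990862 on the plus strand and S1PR5 at chr19:10517966-10518215 on the minus strand. All are printed 5′ to 3′, and capitals mark AGGAA or its reverse complement TTCCT, the core bound by ETS factors such as PU.1.
S1PR4: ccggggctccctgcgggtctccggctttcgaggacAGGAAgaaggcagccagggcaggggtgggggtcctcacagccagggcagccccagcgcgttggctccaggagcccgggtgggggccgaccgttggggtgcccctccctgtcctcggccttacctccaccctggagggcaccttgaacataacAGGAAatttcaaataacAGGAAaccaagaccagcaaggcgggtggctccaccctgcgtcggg
S1PR3: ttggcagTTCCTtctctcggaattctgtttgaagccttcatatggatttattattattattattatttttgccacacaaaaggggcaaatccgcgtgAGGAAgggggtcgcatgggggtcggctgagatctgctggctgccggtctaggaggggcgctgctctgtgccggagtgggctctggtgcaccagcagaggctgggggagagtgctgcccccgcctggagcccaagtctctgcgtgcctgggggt
S1PR5: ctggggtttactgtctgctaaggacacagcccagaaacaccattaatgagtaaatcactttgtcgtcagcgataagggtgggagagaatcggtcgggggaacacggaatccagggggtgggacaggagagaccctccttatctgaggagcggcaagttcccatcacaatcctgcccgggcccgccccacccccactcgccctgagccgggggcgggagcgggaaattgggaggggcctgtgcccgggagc

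On both strands, the window of S1PR4 held 3 matches to AGGAA, that of S1PR3 held 2 and those of S1PR2 and S1PR5 held 0. The S1PR1 window of 96 bases held 1, and a window at another S1PR5 start, 247 bases long, held 0. Of 35116 windows of 250 bases in the RefSeq table, 56.8% held at least 1 match, 24.0% at least 2 and 8.10% at least 3. TGTGGT, the core bound by RUNX factors and their partner CBFB, was in none of the windows of the family, against 11% of all windows. CACCC, a core of Kruppel-like factors, had 6 matches for S1PR4, 2 for S1PR2, 3 for the S1PR5 window shown and 0 for S1PR3 and S1PR1, and 54.7% of all windows held at least 1. Both strands were searched and each motif was counted on its own, so matches of different motifs may share bases. They describe letters, not binding. GGAA after a base other than A was not counted, and it occurs in the S1PR2 window and in the S1PR5 window shown.

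None of the tested S1P receptors passed the test between SPNS2 and control cells. The edgeR test called 24.5% of 13308 features at an adjusted p under 0.05, and 0 of the 3 receptors. None had an unadjusted p under 0.05, and 0 passed with DESeq2 or limma voom. The groups did not overlap for 40.1% of tested features and for 0 of these 3 receptors. S1PR4 had a log2 fold change of 0.07 (SE 0.0356, edgeR adjusted p = 0.185), S1PR3 one of 0.06 (SE 0.0485, adjusted p = 0.417) and S1PR2 one of 0.06 (SE 0.131, adjusted p = 0.776). Each mean was slightly higher in the SPNS2 arm, with values of both arms overlapping.

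The intervals show what sizes of change these libraries leave possible. For S1PR4 the 95% interval of the difference ran from -0.586% to 10.8%, for S1PR3 from -3.19% to 12.2% and for S1PR2 from -14.4% to 27.5%. The S1PR4 interval is narrow, and its standard error lay at percentile 22.2 of all tested features, against 76.9 for S1PR2. The spread of S1PR4 between libraries, a coefficient of variation of 3.07% in the controls and 2.59% with SPNS2, was close to the 2.19% to 2.63% that counting alone gives. For S1PR2 counting alone gives 8.01% to 9.95%, and the spread was 16.3% in the controls and 4.25% with SPNS2. Leaving out control library 2 turned the S1PR2 log2 fold change to -0.0277, and leaving out control library 3 raised it to 0.20 (edgeR adjusted p = 0.317).

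The mix of receptors differed between arms by less than the spread between libraries. With the longest coding transcripts, S1PR4 made up 89.6 ± 0.265% of receptor counts per length in the controls and 89.7 ± 0.389% with SPNS2 (SD, n = 3 each). This share differed by 0.0638 percentage points (exact two-sided permutation test, p = 0.9, where 0.1 is the smallest p that 3 against 3 libraries can give). S1PR3 made up 7.36 ± 0.425% and 7.31 ± 0.390%, and S1PR2 3.01 ± 0.451% and 3.0 ± 0.116% (SD, n = 3 each). The size of the S1PR4 share depends on the length used: it was 85.0 ± 0.394% and 85.1 ± 0.594% with RefSeq-matched lengths, 65.6 ± 0.801% and 65.8 ± 1.09% of counts not divided by length, and 43.5 ± 1.31% and 43.7 ± 1.37% with the shortest coding models (SD, n = 3 each). With the shortest models S1PR3 held the larger share, 55.0 ± 1.53% and 54.8 ± 1.39% (SD, n = 3 each). The sign of the difference in the S1PR4 share turned when control library 2 or 3 or SPNS2 library 3 was left out.

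Added up over the family, receptor transcripts were at 81.3, 78.4 and 80.1 CPM in the controls and at 83.0, 83.5 and 84.8 CPM with SPNS2. All SPNS2 libraries were above all control libraries, by 4.78% in the mean, as for 40.1% of single features whose groups did not overlap in either direction. The same held without TMM scaling, where the difference was 5.44%, and per length, where it was 4.98%. This sum was looked at after the single values were seen, is mostly S1PR4, and is given without a test.

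**Figure D3:**
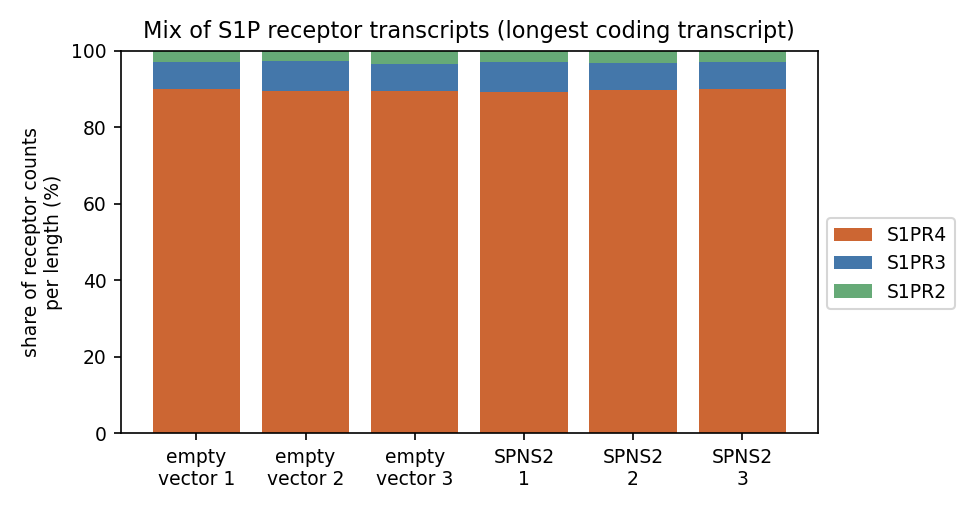
Share of each S1P receptor in the summed receptor counts per length of the longest coding transcript (vertical axis, percent) in each of the 6 libraries (horizontal axis). With these lengths S1PR4 holds 89.2% to 90.0% in every library, against means of 43.5% and 43.7% by arm with the shortest coding models, where S1PR3 is above it, and S1PR1 and S1PR5 are too low to be drawn.

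The genes most like each receptor over the 6 libraries differed from receptor to receptor. Likeness was the Pearson correlation of log2 CPM among 11626 genes at 1 CPM or more. For S1PR4 these were NKPD1 (r = 0.996), TMEM9 (r = 0.990) and NKAIN3 (r = 0.988), for S1PR3 PDXDC1 (r = 0.996), GGNBP2 (r = 0.988) and LXN (r = 0.988), and for S1PR2 WTIP (r = 0.995), NPAS1 (r = 0.972) and HMBOX1 (r = 0.971). None of these 9 genes passed the test between arms. With 6 libraries such values are a description: 212 genes were above 0.9 for S1PR4, 70 for S1PR3 and 36 for S1PR2. Between the receptors themselves the values were r = 0.07 for S1PR3 and S1PR4, r = 0.48 for S1PR2 and S1PR4 and r = -0.51 for S1PR2 and S1PR3.

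Receptors of the same gene family, and a more distant list of lysophospholipid and other receptors, are the closest comparison. Among 8 relatives of the S1P receptors by sequence, 4 were tested and 0 passed, where 24.5% of all tested features were called. The arms did not overlap for 2 of these 4, against 40.1% of all tested features. LPAR2 was at 37.0 ± 0.673 CPM in the controls and 39.0 ± 0.677 CPM with SPNS2 (SD, n = 3 each), a log2 fold change of 0.07, and LPAR1 had one of -0.03. GPR3, a constitutively active receptor, had a log2 fold change of -1.01 at 0.503 CPM (edgeR adjusted p = 0.0530) and passed without control library 1 (adjusted p = 0.0314). In the more distant list, 3 of 6 tested rose and 0 fell, against 11.9% of all tested features that rose. Of those 3, only LPAR6 is named as a lysophospholipid receptor. LPAR6, a receptor for lysophosphatidic acid, rose from 3.77 ± 0.239 to 6.73 ± 0.333 CPM, GPR132 from 5.68 ± 0.875 to 8.09 ± 0.779 CPM and P2RY8 from 285 ± 3.74 to 341 ± 7.03 CPM (SD, n = 3 each). Their log2 fold changes were 0.84, 0.52 and 0.26 (edgeR adjusted p = 0.000201, 0.00983 and 5.27e-05), and all 3 also passed without each single library. Whether they differ in response from the S1P receptors was not tested.

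**Figure D4:**
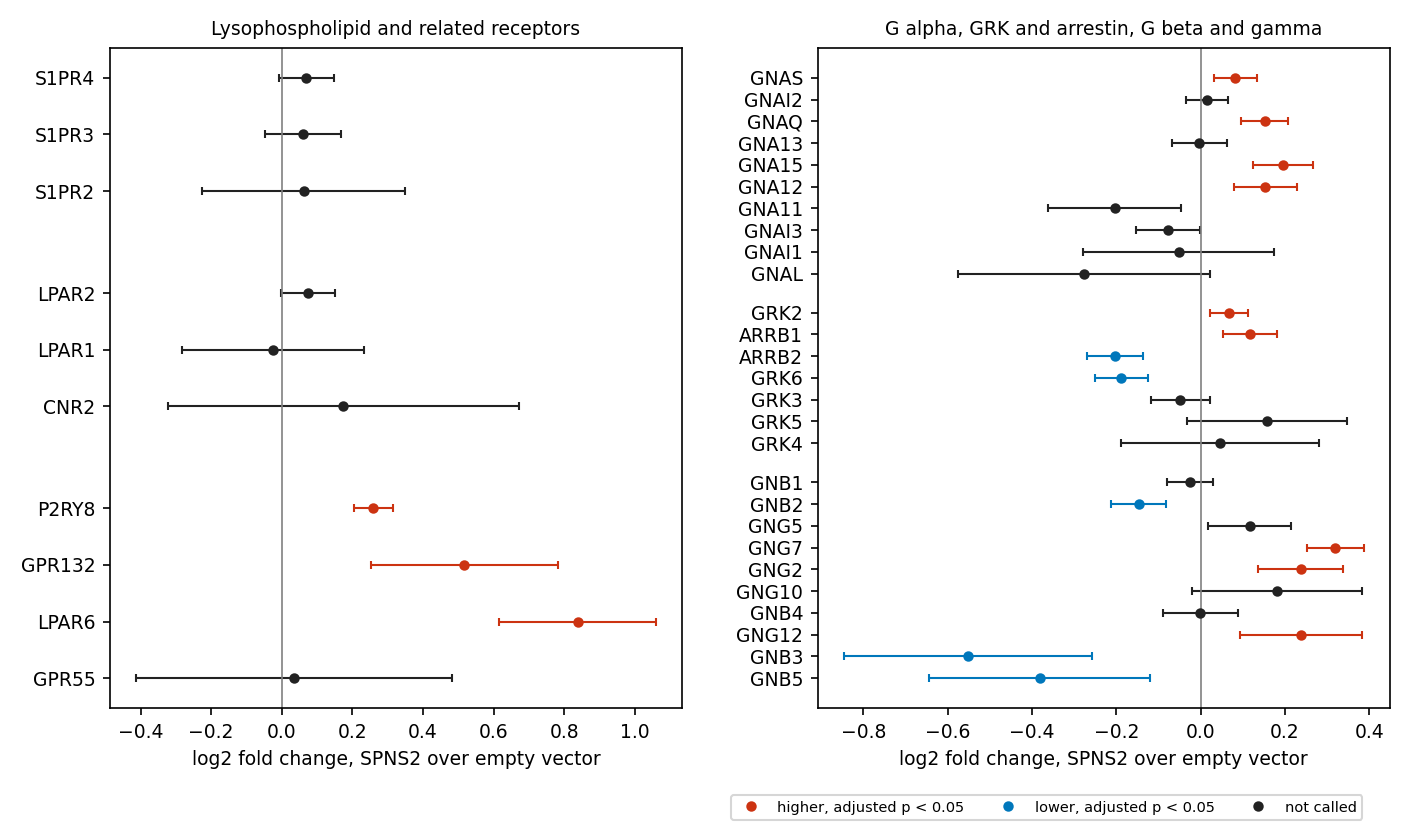
Log2 fold change of SPNS2 over empty vector (horizontal axis) with its 95% interval for tested genes at 1 CPM or more of 6 lists. S1P receptors, their relatives, and a list of lysophospholipid and other receptors are on the left. G alpha, GRK and arrestin, G beta and gamma genes are on the right. Genes are ordered by list and, within a list, by level per length. Red is higher and blue lower at an adjusted p under 0.05. The 3 S1P receptors lie at 0.06 to 0.07 with intervals across 0, while P2RY8, GPR132 and LPAR6 lie at 0.26 to 0.84.

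Each G protein class that S1P receptors use had transcripts in the line. Among 11 tested G alpha genes 4 rose and 0 fell (11.9% and 12.6% of all tested features), and their median log2 fold change was 0.01 (0.00263 over all tested features). Gi was present as GNAI2, which at 184 CPM per kb was the second highest of the list, and its log2 fold change was 0.01. For the Gq class, which S1PR2 and S1PR3 use, GNAQ rose from 153 ± 1.21 to 170 ± 1.90 CPM and GNA15, the member found in blood cells, from 40.1 ± 0.583 to 45.9 ± 0.566 CPM (SD, n = 3 each). For the G12/13 class, GNA12 rose from 40.0 ± 1.03 to 44.5 ± 0.592 CPM (SD, n = 3 each). GNAS, the Gs subunit, was the highest of the list at 258 CPM per kb and rose by 0.08 on the log2 scale (edgeR adjusted p = 0.0248). Without SPNS2 library 3, GNA11, a Gq class member named after its value was seen, also passed, with a log2 fold change of -0.27 (edgeR adjusted p = 0.0228). GNAS lost significance without control library 1 or 2 or SPNS2 library 1 or 2 (adjusted p = 0.0549, 0.0704, 0.0869 and 0.0960).

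Of 10 tested G beta and gamma genes, 3 rose and 3 fell, against 11.9% and 12.6% of all tested features. GNG7 rose from 91.8 ± 0.875 to 114 ± 3.34 CPM and GNG2 from 74.5 ± 4.67 to 87.7 ± 3.34 CPM, while GNB2 fell from 157 ± 3.94 to 142 ± 2.58 CPM (SD, n = 3 each). GNB3 fell by 0.55 on the log2 scale at 3.17 CPM and did not pass without SPNS2 library 1 (edgeR adjusted p = 0.0582). In that fit 3 members of the list were called in all, and 2246 of 13519 features. GNB1, the highest beta subunit, had a log2 fold change of -0.03.

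G protein-coupled receptor kinases phosphorylate active receptors, and arrestins then uncouple and internalise them. Of 7 tested, 2 rose and 2 fell (24.5% of all tested features were called). ARRB2 fell from 65.2 ± 0.803 to 56.7 ± 0.848 CPM and GRK6 from 79.5 ± 0.944 to 69.8 ± 0.756 CPM, while ARRB1 rose from 234 ± 2.22 to 254 ± 8.70 CPM (SD, n = 3 each). GRK2, the kinase that acts on S1PR1, was the highest at 276 CPM per kb and rose by 0.07 on the log2 scale (edgeR adjusted p = 0.0361). Both falls also passed without each single library. Neither rise passed without control library 3 or SPNS2 library 2, with adjusted p = 0.0528 and 0.0627 for ARRB1 and 0.0791 and 0.115 for GRK2. GRK2 did not pass without control library 1 or 2 or SPNS2 library 3 either (edgeR adjusted p = 0.0647, 0.0701 and 0.101), and ARRB1 did not pass without SPNS2 library 1 (0.0598).

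RGS proteins speed the return of G alpha subunits to rest. Of 11 tested, 2 rose and 1 fell, a share close to the 24.5% of all tested features that were called. RGS3 rose from 8.26 ± 0.840 to 18.3 ± 1.03 CPM (SD, n = 3 each), a log2 fold change of 1.14 (SE 0.0786, edgeR adjusted p = 4.64e-06), the largest fold change among the called genes of the G protein lists, and passed without each single library. RGS18 rose by 0.27 and RGS16 fell by 0.31 on the log2 scale. Without any 1 of the 6 libraries RGS16 did not pass (edgeR adjusted p = 0.0566 to 0.106), and RGS18 did not pass without control library 1 or 3 or SPNS2 library 1 or 3 (0.0843, 0.0741, 0.0780 and 0.0750). RGS10 was the highest per length at 108 CPM per kb and RGS19 followed at 52.8, with log2 fold changes of 0.08 and 0.09.

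Of 13 tested genes of the Gi, PI3-kinase and Rac arm, 3 rose, 2 fell and 8 did not pass, where 11.9% of all tested features rose and 12.6% fell. RAC1, a GTPase of the leading edge, rose from 82.4 ± 3.95 to 95.8 ± 2.20 CPM (SD, n = 3 each). The adenylyl cyclases ADCY3 and ADCY9, enzymes of the class that Gi inhibits, fell by 0.17 and 0.21 on the log2 scale. PREX1, a Rac exchange factor opened by beta-gamma subunits, rose by 0.16 and lost its call without SPNS2 library 1 (edgeR adjusted p = 0.0558). In that fit 1 member of the arm rose in all, and 1079 of 13519 features rose. Of 11 tested genes of the Gq arm, 3 rose, 2 fell and 6 did not pass (24.5% of all tested features were called). PRKCD, a protein kinase C, fell from 5.56 ± 0.463 to 3.15 ± 0.385 CPM and ITPR2, a calcium release channel, rose from 66 ± 1.09 to 76.2 ± 2.60 CPM (SD, n = 3 each). PLCB1, a phospholipase C, fell by 0.39 on the log2 scale and lost significance without control library 1 (adjusted p = 0.0601) and without SPNS2 library 2 or 3 (0.0533 and 0.0518). PRKCB rose by 0.12 and lost significance without control library 3 or SPNS2 library 2 (0.0543 and 0.0549). Without SPNS2 library 2, 1 gene of this arm rose and 1 fell, and without SPNS2 library 3, 2 rose and 1 fell. Those fits called 2352 of 13511 and 2449 of 13504 features.

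Supply of the ligand and known controls of the receptors were measured beside them. Of 10 tested genes that make, move or remove S1P, native SPNS2 and 2 others rose and 1 fell, where 24.5% of all tested features were called. The others were ASAH1, which frees sphingosine, with a log2 fold change of 0.38, and PLPP3, which dephosphorylates S1P outside cells, with one of 0.38. The native SPNS2 row went from 42.6 ± 1.92 to 50.5 ± 1.80 CPM (SD, n = 3 each), while the vector SPNS2 row held 778 CPM with SPNS2. Whether reads of the vector entered the native row was not tested. SPHK1, a kinase that makes S1P, fell from 97.1 ± 1.25 to 80.6 ± 3.62 CPM (SD, n = 3 each). SPHK2, the other sphingosine kinase, was at 18.3 ± 0.897 CPM in the controls and 17.0 ± 0.661 CPM with SPNS2 (SD, n = 3 each). It did not pass (edgeR adjusted p = 0.205). Of 6 tested regulators of S1P receptors, 1 fell and 0 rose (24.5% of all tested features were called). It was KLF2, the factor that turns on S1PR1 in lymphocytes, from 2.22 ± 0.399 to 1.35 ± 0.249 CPM (SD, n = 3 each), a log2 fold change of -0.72 (edgeR adjusted p = 0.0235). KLF2 did not pass without control library 2 or 3 (adjusted p = 0.0784 and 0.0790) or SPNS2 library 2 or 3 (0.0523 and 0.0839). Without SPNS2 library 3 the only call of the list was a higher one, ZEB2, a transcription factor, with a log2 fold change of 0.12 (adjusted p = 0.0367). CD69, which pulls S1PR1 from the surface, was at 3.16 ± 0.0661 and 2.73 ± 0.328 CPM (SD, n = 3 each) and did not pass. TBX21, which S1PR5 needs in natural killer cells, was too low to test. Of 4 proteins reported to bind S1P inside cells, PHB2 and TRAF2 fell by 0.13 and 0.16 on the log2 scale and HDAC1 and HDAC2 did not pass, where 12.6% of all tested features fell. TRAF2 lost its call without any 1 library but control library 3 (edgeR adjusted p = 0.0558 to 0.162).

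Over 13 lists of partners, relatives and regulators, with SPNS2 left out, 42 of 114 tested genes passed (36.8%, against 24.5% of all tested features), 23 higher and 19 lower. The median log2 fold change of these genes was 0.03. The lists were chosen with earlier results of these data known, so the higher share is a description only and was not tested. Without SPNS2 library 1, 28 of 116 tested genes of the lists passed, beside 2246 of 13519 features. Without SPNS2 library 2, 28 of 117 passed, beside 2352 of 13511 features.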

How the data were processed

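Per the labels' protocols, polyadenylated RNA was made into TruSeq Stranded mRNA LT libraries. Estimated counts for each gene were deposited in 1 table. Salmon is named in the submitters' processing notes. Its version, the genome build and the annotation: not given in the sources used here. Values were whole numbers as deposited (0 were not whole), so rounding changed nothing. Symbols were found for 29121 of 34370 Ensembl IDs in a table of gene names or GENCODE 29. All 6 libraries were used, grouped by their titles. No pair of libraries of an arm agreed within sampling noise (chi-square per degree of freedom 3.11 to 6.09).

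Counts were filtered with filterByExpr (minimum count 10, minimum total 15), scaled by TMM and given to edgeR's quasi-likelihood test, arm being the only term (edgeR 4.0.16, R 4.3.3). P-values were adjusted over all tested features by the Benjamini-Hochberg method, with calls made below 0.05. Standard errors were derived from the F statistic, and 95% intervals from these with a t quantile. The pipeline was also run on simulated counts, in which far fewer features differed than were called here. No result given here rests on that run. DESeq2 1.42.0, limma voom 3.58.1, other filters and scalings, a replicate block and fits without each library were the alternatives. The members and gene lists were chosen with earlier results of these data known. The genes named are the receptors, the 3 genes most correlated with each, and SPNS2. Up to 4 genes of smallest p and 2 of highest level per length were named from each list. CD69, CXCR4, DNMT1, GNA11, SPHK2, ZEB2 and the changed myeloid markers were named after their values were seen. Results of 1 of the 13 gene lists, which is counted in their total, are not reported here.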

Additional observations from a re-analysis of the deposited data

How the results depend on the processing

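S1PR4, S1PR3 and S1PR2 did not pass the test in any alternative that tested them: another scaling, no filter, DESeq2, limma voom, the replicate block and fits without each library. S1PR2 was too low for the filter at 5 CPM, and S1PR5 entered only the fit with no filter and did not pass. Without each library in turn, the log2 fold change ranged from 0.05 to 0.09 for S1PR4, from 0.03 to 0.08 for S1PR3 and from -0.0277 to 0.20 for S1PR2, and the difference in the S1PR4 share from -0.0953 to 0.280 percentage points. The unadjusted p of S1PR4 was 0.0442 without control library 1 and 0.0456 without SPNS2 library 1 (edgeR adjusted p = 0.138 and 0.152). Same-numbered libraries did not visibly deviate together (r = 0.03, 0.04 and -0.02). With 3 libraries in each arm this cannot show whether equal numbers mark a shared culture or batch. The main test did not pair them. With the replicate block, 2723 features passed in place of 3263, the log2 fold changes of S1PR4, S1PR3 and S1PR2 were 0.07, 0.06 and 0.07, and 33 of the 114 partner genes passed.

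Of 59 partner genes, 37 kept direction and call in each alternative that gave them a value; 51 had one with the filter at 5 CPM, 57 with DESeq2 and all 59 in the others. Small differences that were not called changed sign without 1 library: log2 fold changes ran from -0.00292 to 0.0275 for RAC2 (-0.00237 being the other turned value), -0.0595 to 0.0150 for DOCK2, -0.0151 to 0.396 for CNR2, -0.0426 to 0.00787 for HDAC2 and -0.0902 to 0.0510 for LPAR1 (0.0232 being the other). GPR3, lower with SPNS2, also passed with no filter (log2 fold change -1.02, edgeR adjusted p = 0.0435). RGS19 passed with the filter at 5 CPM (edgeR adjusted p = 0.0483) and without control library 2 (0.0423). With DESeq2 and with the replicate block, 1 RGS gene and 1 intracellular binder passed. With DESeq2, 1 member of the chemoattractant receptor list and 0 receptor regulators passed. Over all features, 2350 of 12587 passed with DESeq2 and 2723 of 13308 with the replicate block. S1PR1 and S1PR5 gave no usable difference, and their limits cover counting error only, not reads that were assigned elsewhere. S1PR2 had counts of 101 to 156 per library and an interval that reached 27.5%. How much of that width comes from depth and how much from other spread between libraries was not tested.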

Other observations

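Receptors for chemoattractants, which steer leukocytes as S1P receptors do, were listed with histamine receptors such as HRH2 and were mostly low in this line. Of 30 listed with a row, 13 passed the filter on low counts and 5 had 0 counts in all 6 libraries. Of the 13 tested, 0 rose and 2 fell, against 11.9% and 12.6% of all tested features. HRH2 fell from 73.4 ± 1.52 to 67.4 ± 1.28 CPM and C3AR1, the receptor of complement C3a, from 8.56 ± 0.539 to 6.86 ± 0.531 CPM (SD, n = 3 each; edgeR adjusted p = 0.0142 and 0.0266). HRH2 did not pass without control library 3 or SPNS2 library 3 (adjusted p = 0.0512 and 0.0542), and C3AR1 did not pass without control library 2 or 3 or SPNS2 library 1 or 2 (0.0831, 0.102, 0.108 and 0.0696). CYSLTR1 was at 50.8 ± 0.594 and 52.0 ± 2.09 CPM (SD, n = 3 each) and did not pass.

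Markers of other cells were low, EPCAM excepted. Summed over their lists, B cell markers were at 6.53 to 7.65 CPM, T and natural killer cell markers at 3.88 to 5.94 CPM and fibroblast markers at 1.09 to 1.79 CPM in all libraries. Of 3 tested T and natural killer cell markers, CD8A fell by 0.69 and CD3E rose by 0.87 on the log2 scale (edgeR adjusted p = 0.00826 and 0.0298). Of all tested features 24.5% were called. Both were low, CD8A at 3.66 CPM in the controls and 2.27 CPM with SPNS2, and CD3E at 0.494 and 0.892 CPM. CD3E did not pass without any 1 library but control library 2 (adjusted p = 0.0723 to 0.109). EPCAM, an adhesion protein of epithelia, was at 124 ± 4.57 CPM in the controls and 142 ± 1.45 CPM with SPNS2 (SD, n = 3 each; log2 fold change 0.19, edgeR adjusted p = 0.00137), while KRT18 and KRT19 of the same list had 0 counts.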
